A study of Bos taurus with 5 samples.

Results

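The genes described here are 43 that copy DNA or supply its building blocks, chosen as a list of gene names for origin licensing, the helicase, the polymerases and their clamp, fragment joining, nucleotide supply and chromatin copying. Each of the 43 names occurred once in a table of 27607 genes. The study made 5 RNA libraries from cattle (Bos taurus), and each carries 1 tissue label: brain, skin, lung, heart or limb. No strain, age, sex or treatment is stated, and neither is how many cells or animals went into a library. Per the labels' protocols, lysed cells were pre-amplified and made into libraries with the protocol of the Fluidigm C1-HT chip, a microfluidic device built to process single cells. Since every label has a single library, nothing was replicated: each difference below is between 2 libraries, without an error or a test, and cannot be read as a difference between tissues.

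Before a cell divides it copies its DNA once, in S phase. The origin recognition complex, with CDC6 and CDT1, loads the ring of MCM2 to MCM7 onto DNA, and CDC45 and the GINS complex then turn this ring into the active helicase. Primase lays down primers, the clamp loader RFC places the PCNA clamp, and polymerases delta and epsilon copy the strands while RPA covers single-stranded DNA. FEN1 and LIG1 join the fragments of the lagging strand, and enzymes such as ribonucleotide reductase and thymidylate synthase make the deoxynucleotides. Many of these genes are transcribed mostly in dividing cells, under E2F factors, whereas some repair and single-strand binding factors are also expressed outside S phase.

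Values were taken as FPKM, which are scaled to transcript length, and summed to between 1072430 and 1172798 per library. The markers of the tissues on the labels were nearly absent. In the library whose label matched, the genes above 0 were 0 of 10 neuronal, 1 of 9 keratinocyte, 1 of 10 alveolar, 1 of 10 cardiomyocyte, 2 of 10 skeletal muscle and 0 of 5 cartilage genes. Of 10 fibroblast genes 5 or 6 were above 0 in each library, and of 8 blood and immune genes only HBA was, in the lung library. The lung library, the brain library and so on therefore mean the library with that label, and say nothing of the cells in it. Between the brain and heart libraries, 277 of 3557 low genes stood in ratios of small whole numbers once 1 read in the first was taken as worth 81.0% of 1 read in the second, a measure of relative depth. An offset of 1.62 fitted 259 genes, so even this depth is uncertain by a factor of 2, and in the other 9 pairs the best offset fitted 73 to 161 genes. Where a library holds RNA of several cells, fewer dividing cells and less of an RNA per cell cannot be told apart.

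The lung library listed most of the replication genes, at every step, and the others listed parts of them. Of the 43 genes, 35 (81.4%) were above 0 in the lung library, where 21.7% of all genes in the table were. In the skin library 20 (46.5%) were above 0, against 18.5% of all genes. The heart library had 14 (32.6%) against 24.0%, the limb library 12 (27.9%) against 19.3%, and the brain library 11 (25.6%) against 23.9%. Most genes of the table were at 0 throughout. Among the 37 of the 43 genes and the 9877 of all genes that were above 0 somewhere, the lung library had 94.6% of the first and 60.7% of the second. On that base the skin library had 54.1% and 51.7%, the heart 37.8% and 67.2%, the limb 32.4% and 53.9%, and the brain 29.7% and 66.8%. The brain and heart libraries thus listed the most genes in all and few of the replication genes.

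The summed level gave a different picture from the number of genes. The 43 genes added up to 4379 FPKM in the lung and 4351 FPKM in the skin library, 0.373% of each library's total. They added up to 647 FPKM in the brain, 550 FPKM in the heart and 473 FPKM in the limb library. The skin sum was thus close to the lung one with 15 fewer genes. DUT alone gave 1839 FPKM of the skin and 1480 FPKM of the lung sum. The median log2(FPKM + 1) of the 43 genes was 4.84 in the lung library and 0 in the other 4, and that of all genes was 0 in each library.

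**Figure D1:**
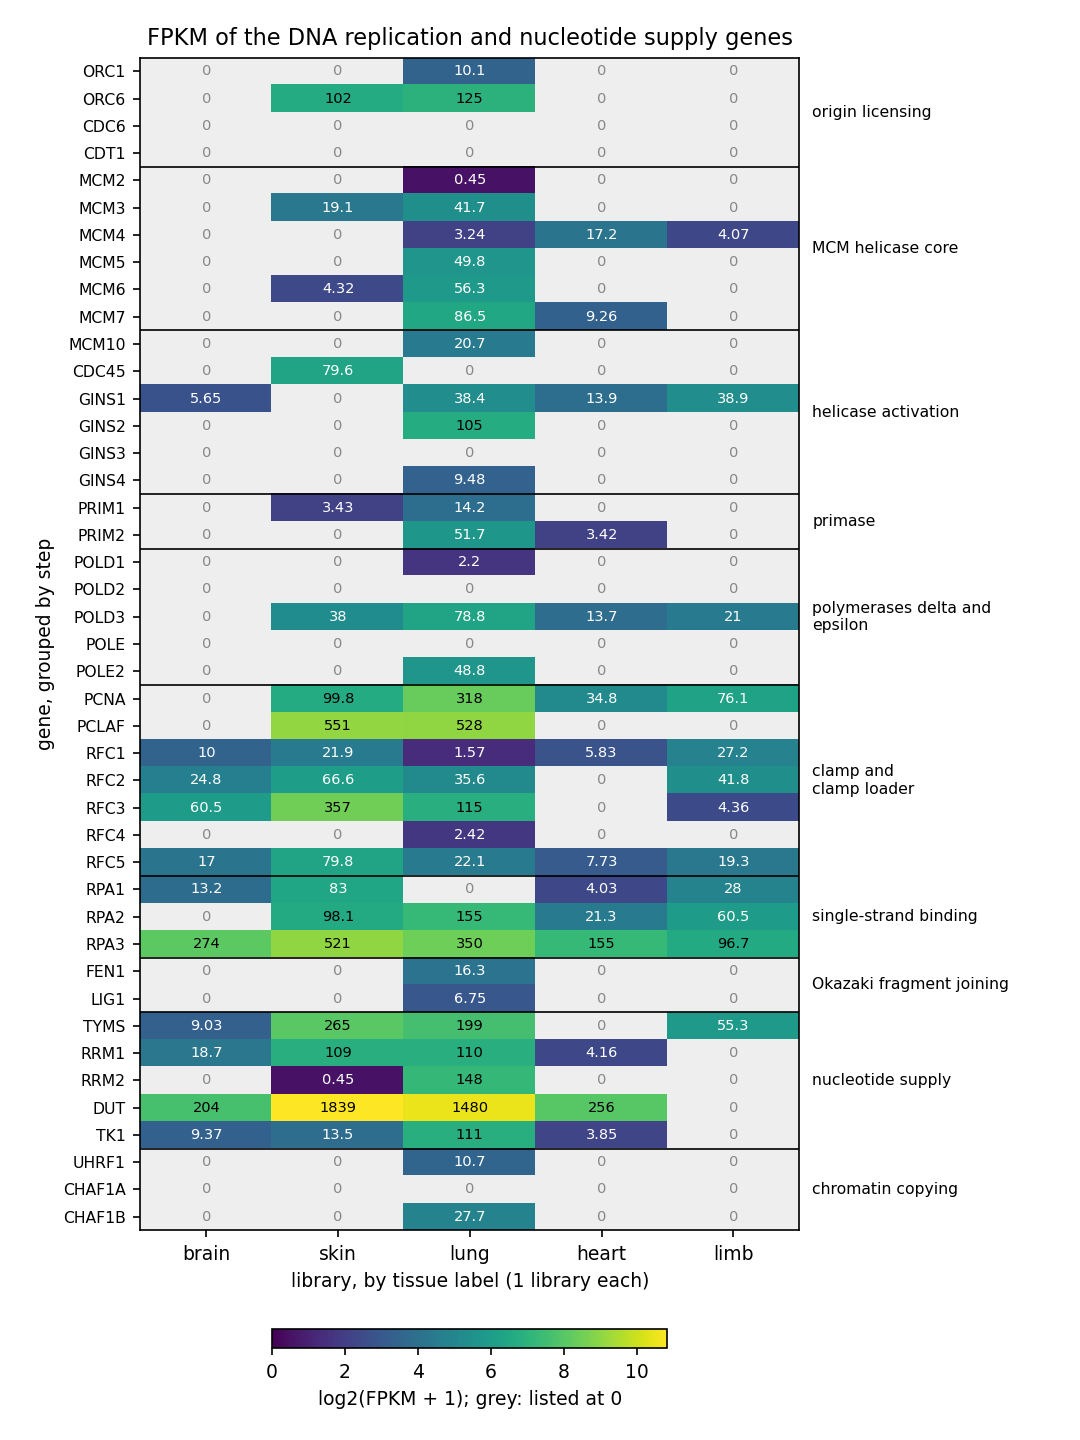
FPKM of each of the 43 genes (rows, grouped by step) in each of the 5 libraries (columns), with colour on the scale log2(FPKM + 1) and grey for values of 0. The lung column is filled in 35 of 43 rows, while the brain column is filled in 11.

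Of the 4 origin licensing genes among the 43, ORC6 and ORC1 were above 0, in the skin and lung libraries or in the lung library alone. CDC6 and CDT1, which load the MCM ring, were listed at 0 in all 5 libraries. ORC6, a small subunit of the origin recognition complex, stood at 102 FPKM in the skin and 125 FPKM in the lung library and at 0 in the other 3. ORC1, its largest subunit, was above 0 in the lung library alone, at 10.1 FPKM.

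The 6 subunits of the MCM ring, which assemble in equal numbers, were all above 0 in the lung library alone. There they spanned MCM7 at 86.5 FPKM, MCM6 at 56.3 FPKM, MCM5 at 49.8 FPKM, MCM3 at 41.7 FPKM, MCM4 at 3.24 FPKM and MCM2 at 0.45 FPKM. The value of MCM2 was among the lowest in that library, since only 1.49% of its listed genes were at or below it. The skin library held MCM3 at 19.1 FPKM and MCM6 at 4.32 FPKM, and the heart library MCM4 at 17.2 FPKM and MCM7 at 9.26 FPKM. In the limb library MCM4 was above 0 at 4.07 FPKM, and in the brain library no subunit was. MCM4 was the 1 subunit whose highest value was outside the lung library: it was at 0 in the brain and skin libraries and highest in the heart one.

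The factors that activate the ring were split between libraries. CDC45, which joins the MCM ring in the active helicase, was at 79.6 FPKM in the skin library and at 0 in the other 4, including the lung one. MCM10, which acts at helicase activation, was at 20.7 FPKM in the lung library and at 0 elsewhere. Of the 4 GINS subunits, GINS2 at 105 FPKM and GINS4 at 9.48 FPKM were above 0 only in the lung library, and GINS3 was at 0 in all 5. GINS1 had another pattern, with 5.65 FPKM in the brain, 0 in the skin, 38.4 in the lung, 13.9 in the heart and 38.9 in the limb library. No library had all of CDC45, MCM10 and the 4 GINS genes above 0.

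Of the 7 primase and polymerase subunits among the 43, 5 were above 0 in the lung library, 2 each in the skin and heart, 1 in the limb and 0 in the brain library. PRIM1, the catalytic subunit of primase, was at 14.2 FPKM in the lung and at 3.43 FPKM in the skin library. PRIM2, its large subunit, was at 51.7 FPKM in the lung and 3.42 FPKM in the heart library. POLE2, the second subunit of polymerase epsilon, was above 0 only in the lung library, at 48.8 FPKM. POLD1, the catalytic subunit of polymerase delta, was above 0 there as well, at 2.20 FPKM. POLE, the catalytic subunit of polymerase epsilon, and POLD2 were at 0 in every library. POLD3, an accessory subunit of polymerase delta, was listed most widely of the 7, with 0 FPKM in the brain, 38.0 in the skin, 78.8 in the lung, 13.7 in the heart and 21.0 in the limb library.

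The clamp and its loader were listed more widely than the helicase. PCNA, the sliding clamp, stood at 0 FPKM in the brain, 99.8 in the skin, 318 in the lung, 34.8 in the heart and 76.1 in the limb library. PCLAF, a small protein that binds PCNA, differed from its partner: it stood at 551 FPKM in the skin and 528 FPKM in the lung library and at 0 in the other 3. PCLAF was thus listed in the 2 libraries where PCNA was highest and was higher than PCNA in both.

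Of the 5 RFC subunits of the clamp loader, RFC1 and RFC5 were above 0 in all 5 libraries. RFC5 was at 17.0 FPKM in the brain, 79.8 in the skin, 22.1 in the lung, 7.73 in the heart and 19.3 in the limb library. RFC1, the large subunit, was at 10.03 FPKM in the brain, 21.9 in the skin, 1.57 in the lung, 5.83 in the heart and 27.2 in the limb library. RFC1 was thus lowest in the lung library, against the order of most of the 43 genes. RFC3 was at 60.5 FPKM in the brain, 357 in the skin, 115 in the lung, 0 in the heart and 4.36 in the limb library. RFC2 was at 24.8 FPKM in the brain, 66.6 in the skin, 35.6 in the lung, 0 in the heart and 41.8 in the limb library. RFC2, RFC3 and RFC5 were highest in the skin library, and RFC4 was above 0 only in the lung library, at 2.42 FPKM.

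The single-strand binding complex RPA was the most evenly listed part. RPA3, its smallest subunit, was above 0 in all 5 libraries, with 274 FPKM in the brain, 521 in the skin, 350 in the lung, 155 in the heart and 96.7 in the limb library. RPA2 was at 0 FPKM in the brain, 98.1 in the skin, 155 in the lung, 21.3 in the heart and 60.5 in the limb library. RPA1, the large DNA-binding subunit, was at 13.2 FPKM in the brain, 83.0 in the skin, 0 in the lung, 4.03 in the heart and 28.0 in the limb library. In each library RPA3 was the highest of the 3 subunits per length, and 1 subunit was at 0 in the brain and another in the lung library. FEN1, the nuclease that trims flaps between fragments, was above 0 only in the lung library, at 16.3 FPKM, as was the ligase LIG1, at 6.75 FPKM.

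Nucleotide supply held the most abundant of the 43 genes. DUT, which removes dUTP and makes the precursor of thymidylate, was at 204 FPKM in the brain, 1839 in the skin, 1480 in the lung, 256 in the heart and 0 in the limb library. In the skin library DUT ranked 124 of 5109 listed genes, and in the lung library 157 of 5991. TYMS, thymidylate synthase, was at 9.03 FPKM in the brain, 265 in the skin, 199 in the lung, 0 in the heart and 55.3 in the limb library. Both enzymes of the thymidylate route were thus several times higher in the skin and lung libraries than in any other.

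The 2 subunits of ribonucleotide reductase, which makes deoxynucleotides from ribonucleotides, differed. RRM1, the large subunit, was at 18.7 FPKM in the brain, 109 in the skin, 110 in the lung, 4.16 in the heart and 0 in the limb library. RRM2, the small subunit made in S phase, was at 148 FPKM in the lung and 0.45 FPKM in the skin library, and at 0 in the other 3. The skin and lung libraries were therefore nearly equal in RRM1 and far apart in RRM2. TK1, the thymidine kinase of the salvage route, was at 9.37 FPKM in the brain, 13.5 in the skin, 111 in the lung, 3.85 in the heart and 0 in the limb library.

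The last 3 of the 43 act when chromatin is copied with the DNA, and 2 of them were listed, in the lung library alone. CHAF1B, a subunit of the histone chaperone CAF-1, was there at 27.7 FPKM. UHRF1, which brings the maintenance DNA methyltransferase to new strands, was at 10.7 FPKM. CHAF1A, the large CAF-1 subunit, was at 0 in all 5 libraries. With CDC6, CDT1, GINS3, POLD2 and POLE it made up the 6 genes with no value above 0.

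The highest value of a gene fell most often in the lung library. Of the 37 genes above 0 somewhere, 25 were highest there, where 23.3% of such genes in the whole table were. In the skin library 9 were highest (19.1% of all such genes), in the limb library 2, RFC1 and GINS1 (17.6%), and in the heart library 1, MCM4 (19.9%). None was highest in the brain library, against 20.1% of all such genes. The 9 highest in the skin library were CDC45, PCLAF, RFC2, RFC3, RFC5, RPA1, RPA3, TYMS and DUT. This comparison was chosen after the values were seen.

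Pairs of libraries were compared next. A gene was called higher in a library when it reached 10 FPKM there and its FPKM + 1 was at least 4 times that of the other library. Of the 43 genes, 25 were called higher in the lung than in the heart library (4.89% of all genes), 24 higher than in the brain (4.43%) and 21 higher than in the limb library (6.13%). In the opposite direction 1 was called against the heart (5.3%), 2 against the brain (5.35%) and 2 against the limb library (4.64%). With a minimum of 50 FPKM the counts for the lung library were 15, 14 and 12. The opposite calls at 10 FPKM were MCM4 for the heart label and RFC1 with RPA1 for the other 2. Only a gene at 10 FPKM or more can be called. Among the 28 of the 43 genes at that level in the lung library, 85.7% were called higher than in the brain library, against 28.2% of the 4337 genes of the table at that level. The same shares were 89.3% and 31.2% for the heart library and 75.0% and 39.0% for the limb library.

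The skin library differed from the same 3 libraries through fewer genes. In it 13 genes were called higher than in the brain library (3.7% of all genes), 12 higher than in the heart (4.1%) and 10 higher than in the limb library (5.0%). The opposite calls numbered 0 for the brain label (6.31%), 2 for the heart label (6.17%, MCM4 and GINS1) and 1 for the limb label (5.24%, GINS1). ORC6, MCM3, CDC45, PCLAF, RFC3, TYMS, RRM1 and DUT were called higher in the skin library in all 3 of these pairs. With no minimum level the brain label had 1 opposite call, also GINS1.

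Between the skin and lung libraries, 14 genes were called higher in the lung one (6.0% of all genes) and 3 higher in the skin one (4.23%). The 14 were ORC1, MCM5, MCM6, MCM7, MCM10, GINS1, GINS2, PRIM2, POLE2, FEN1, RRM2, TK1, UHRF1 and CHAF1B, and the 3 were CDC45, RFC1 and RPA1. Of the 14, 11 were at 0 in the skin library. The other 3, MCM6, RRM2 and TK1, were above 0 there. Of the 28 of the 43 genes at 10 FPKM or more in the lung library, 50% were called higher than in the skin library, against 38.2% of all genes at that level, the narrowest gap of the 4 lung pairs. Of the 17 at that level in the skin library, 17.6% were called higher than in the lung library, against 30.4% of all genes. With 10 added in place of 1, 9 genes were called higher in the lung library, and with a minimum of 50 FPKM 6 were.

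Between the brain, heart and limb libraries 1 to 5 of the 43 genes were called in each direction. Higher in the heart than in the brain library were 4 (9.30%, against 3.69% of all genes: MCM4, POLD3, PCNA and RPA2), and 2 were lower (4.65% against 4.03%: RFC2 and RFC3). In the limb library 5 were higher than in the brain (11.6% against 3.45%: GINS1, POLD3, PCNA, RPA2 and TYMS), and 3 were lower (6.98% against 5.8%: RFC3, RRM1 and DUT). The limb library had 4 called higher than the heart (9.30% against 3.57%: RFC1, RFC2, RPA1 and TYMS) and 1 lower (2.33% against 5.68%: DUT). Of the 7 of the 43 genes at 10 FPKM or more in the heart library, 57.1% were called higher than in the brain library, against 22.6% of all genes at that level. The shares were 50% and 24.3% for the 10 in the limb over the brain library, and 40% and 25.1% for the same 10 over the heart library. Each of these counts rests on 5 genes or fewer, and several depend on the rule.

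Some genes were called in all 4 pairs of a library. Higher in the lung library than in each of the others were 13 of the 43, against 1.6% of all genes: ORC1, MCM5, MCM6, MCM7, MCM10, GINS2, PRIM2, POLE2, FEN1, RRM2, TK1, UHRF1 and CHAF1B. These span every step but single-strand binding and the clamp with its loader. CDC45 was called higher in the skin library than in each of the others (1.23% of all genes). POLD3, PCNA and RPA2 were called lower in the brain library than in each of the others, as were 53 of all genes (0.192%). RFC2 in the heart library (0.304% of all genes) and DUT in the limb library (0.862%) were called lower likewise, and each of these 5 genes was listed at 0 there.

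**Figure D2:**
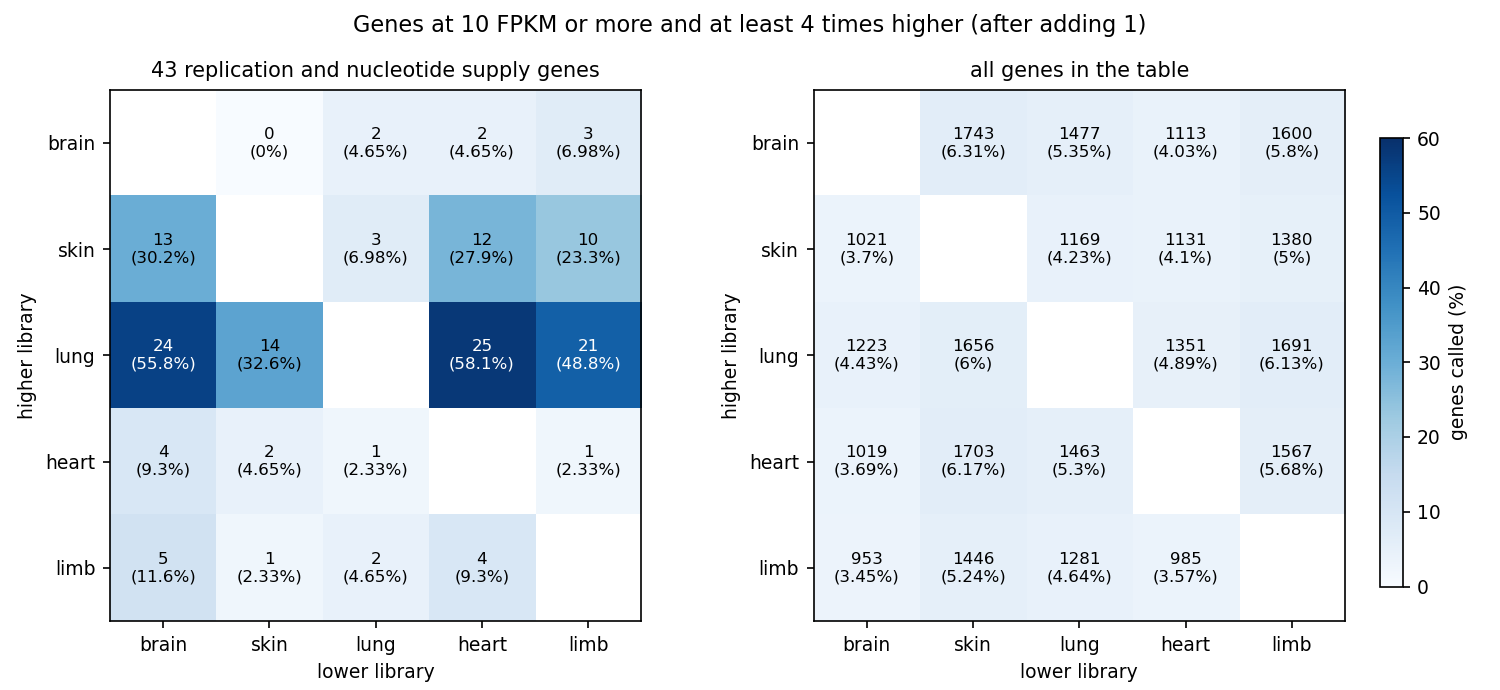
Number and percent of the 43 genes (left) and of all genes in the table (right) called higher in the library of the row than in the library of the column, by the rule of 10 FPKM and a ratio of 4 after adding 1. The lung row of the left panel holds 14 to 25 genes, whereas every cell of the right panel lies between 3.45% and 6.31%.

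How often a gene was missing from a single library was then examined, since a 0 can mean that too few reads were sampled. Of the 43 genes, 11 were above 0 in exactly 4 libraries. That is 29.7% of the 37 genes above 0 somewhere, against 15.3% of all such genes. Above 0 in all 5 libraries were 3 of the 43, 8.11% of the 37 against 26.4% of all such genes. The single 0 fell in the brain library for POLD3, PCNA and RPA2, in the heart for RFC2, RFC3 and TYMS, and in the limb for RRM1, DUT and TK1. It fell in the skin library for GINS1 and in the lung library for RPA1. Of the 1512 genes with a single 0 in the whole table, 7.34% had it in the brain, 10.1% in the heart, 28.9% in the limb, 33.6% in the skin and 20.1% in the lung library. The brain and heart libraries, where such zeros were rarest, thus held 6 of the 11. The single zeros were therefore spread over all 5 libraries and over 5 steps.

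Of these zeros, 6 belonged to genes that were under 10 FPKM in another library. TK1 was as low as 3.85 FPKM, RPA1 4.03, RRM1 4.16, RFC3 4.36, GINS1 5.65 and TYMS 9.03 FPKM. Over the whole table, of the genes above 0 in the other 4 libraries with a lowest value under 10 FPKM, 28.0% were at 0 in the limb, 20.7% in the lung, 12.6% in the heart and 32.0% in the skin library. A single 0 was thus common in the table among genes whose lowest value was this low. The medians of these 6 genes over the other 4 libraries were higher, from 11.4 FPKM for TK1 to 127 FPKM for TYMS. TYMS lay near the upper bound, and from 10 to 20 FPKM 6.65% of genes were at 0 in the heart library.

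The other 5 lay at levels where a single 0 was rarer in the table. POLD3 had a lowest value of 13.7 FPKM, and 3.74% of genes between 10 and 20 FPKM were at 0 in the brain library. RPA2 at 21.3 FPKM and PCNA at 34.8 FPKM lay between 20 and 50 FPKM, where 16 of 470 genes (3.40%) were at 0 in the brain library. RFC2, at 24.8 FPKM, lay in the same range, where 4.15% were at 0 in the heart library. DUT stood apart, since its lowest value in the other 4 was 204 FPKM, and 3 of 525 genes (0.571%) at 200 FPKM or more were at 0 in the limb library. Whether sampling of few cells or reads gave these zeros was not tested, because neither read counts nor the number of cells was known.

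Low values of some genes stood at whole-number steps between the brain and heart libraries. After the correction for the worth of 1 read, TK1 stood at a ratio of 3.01 between them, 0.212% from 3 reads against 1. GINS1 stood at 0.501, 0.205% from 1 read against 2. Of the 8 genes above 0 in both, 6 lay between 2 and 200 FPKM in both, and these 2 of the 6 were within the tolerance of 0.3%, as were 7.79% of all genes in that range. RPA1 stood at 4.04, 0.922% from 4 against 1 and so outside the tolerance. A ratio of 3 to 1 gives no read number, since 3 against 1 and 6 against 2 look alike. The ratios themselves are not settled either. They would change by a factor of 2 under the offset of 1.62, which fitted 259 genes against 277.

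**Figure D3:**
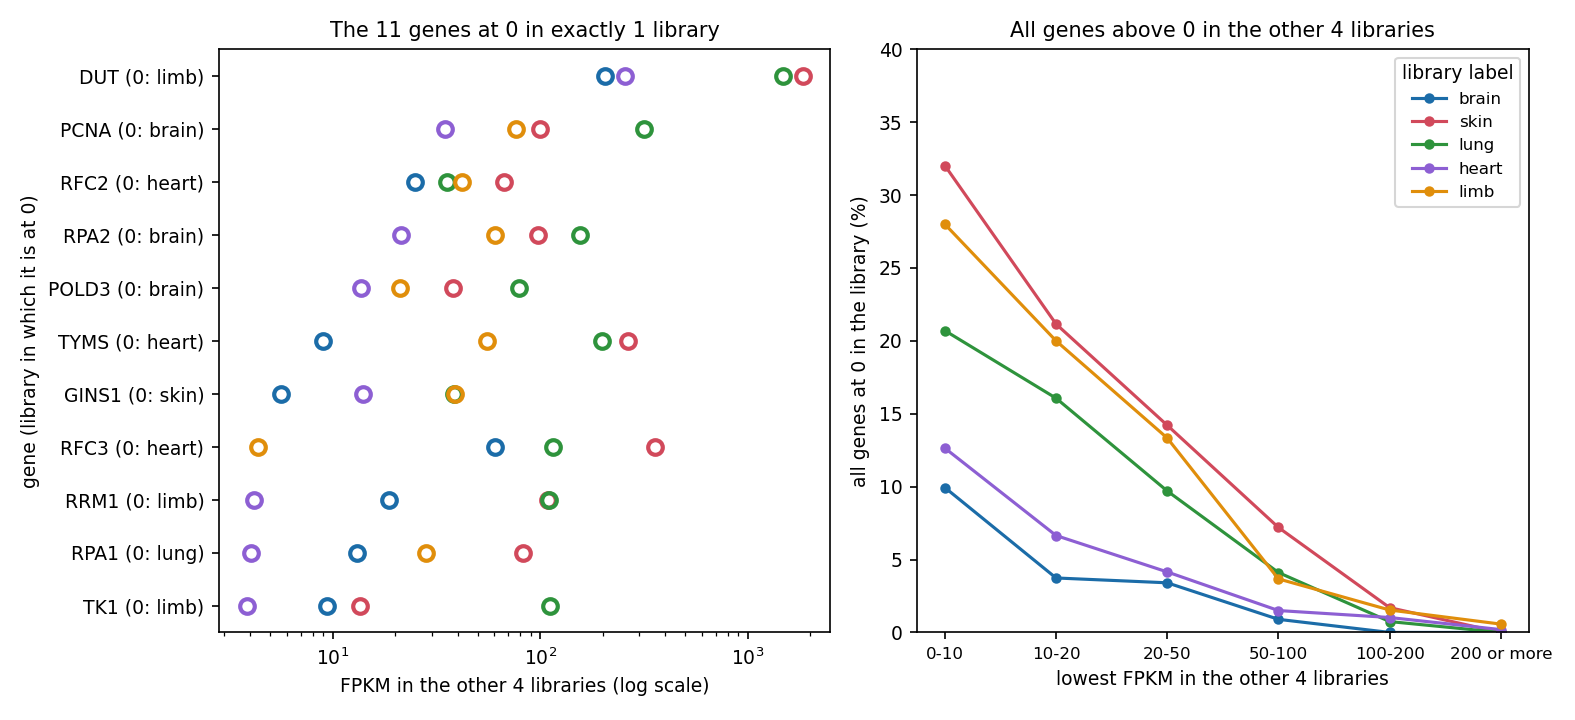
Left, FPKM on a log axis of the 11 genes at 0 in exactly 1 library (1 circle per other library, coloured by label). Right, the percent of all genes above 0 in the other 4 libraries that were at 0 in the library of the line, by their lowest FPKM in the other 4: it goes from between 9.94% and 32.0% under 10 FPKM to 0.571% or less at 200 FPKM or more.

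Genes above 0 in a single library were the other frequent pattern. Of the 43 genes, 14 were above 0 in exactly 1 library, 37.8% of the 37, against 24.7% of all genes above 0 somewhere. In the lung library lay 13 of them: ORC1, MCM2, MCM5, MCM10, GINS2, GINS4, POLD1, POLE2, RFC4, FEN1, LIG1, UHRF1 and CHAF1B. The skin library held the other, CDC45. Of all genes listed in a single library, 20.6% were in the lung one and 27.1% in the heart one, which had none of these 14. Of the 13, GINS2 at 105 FPKM was the highest and MCM2 at 0.45 FPKM the lowest, and 9 were at or under 20.7 FPKM.

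Other genes of the pathway were counted from lists. Of 39 further replication genes, 26 (66.7%) were above 0 in the lung library, against 21.7% of all genes, and 22 (56.4%) in the brain, against 23.9%. The skin and heart libraries each had 18 (46.2%), against 18.5% and 24.0% of all genes, and the limb library 16 (41.0%), against 19.3%. Called higher in the lung library were 14 of the 39 against the brain (4.43% of all genes), 12 against the heart (4.89%), 10 against the limb (6.13%) and 9 against the skin library (6.0%). Called lower in the lung library were 4, 3, 4 and 3 of the 39 in the same order (5.35%, 5.3%, 4.64% and 4.23% of all genes). RNASEH2C, a subunit of the RNase that removes RNA from DNA, was at 500 FPKM in the skin and 293 FPKM in the lung library, 81.8 FPKM in the limb and 13.9 and 13.7 FPKM in the brain and heart libraries. GMNN (geminin), which inhibits CDT1, was at 263 FPKM in the lung library and between 0 and 63.4 FPKM elsewhere. POLE4, a small subunit of polymerase epsilon, was even, at 131 to 219 FPKM, while its partner POLE3 was at 0 in the brain and at 34.0 to 102 FPKM in the other 4. ORC4 was highest in the brain library, at 163 FPKM, and lowest in the lung one, at 15.5 FPKM. POLD4, a small subunit of polymerase delta, was at 6.30 FPKM in the lung and at 51.3 to 123 FPKM in the other 4 libraries.

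Several further replication genes were called in every pair of a library. Of all genes, 1.6% were called higher in the lung library than in each of the others. The shares were 1.23% for the skin, 1.24% for the brain and 1.33% for the heart library. Higher in the lung library than in each of the others were GMNN, the histone chaperones NASP at 165 FPKM and ASF1B at 50.7 FPKM, and MTBP, DONSON and CHTF8 at 22.4, 12.9 and 10.2 FPKM. In the skin library these were RNASEH2A at 147 FPKM and the kinase CDC7, which triggers origins, at 18.5 FPKM. ORC3 at 14.2 FPKM in the brain and WDHD1 at 14.5 FPKM in the heart library were called likewise. In the limb library NASP and ASF1A were called lower than in each of the others (0.862% of all genes). POLE3 was called lower likewise in the brain library (0.192%) and POLD4 in the lung library (0.685%). The maintenance methyltransferase DNMT1 had values above 0 throughout, from 5.65 to 26.9 FPKM.

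In the number of genes above 0, general nucleotide synthesis did not follow the same order. Of 32 genes of this list in the table, 25 were above 0 in the brain, 24 in the heart, 21 in the lung, 18 in the limb and 16 in the skin library. Of all genes, 23.9%, 24.0%, 21.7%, 19.3% and 18.5% were above 0 in the same libraries, close to the order of this list. By summed level the lung library led. The list summed to 9007 FPKM in the lung, 6202 in the skin, 5960 in the heart, 5323 in the limb and 4583 in the brain library. NME2 alone gave 4578, 3897, 4216, 2794 and 2246 FPKM of these sums, so the sums rest largely on 1 gene. NME2 and NME1, nucleoside diphosphate kinases, stood at 2246 to 4578 FPKM and 214 to 635 FPKM. DCTPP1, a pyrophosphatase that clears modified dCTP, stood at 325 to 1102 FPKM, and PAICS of purine synthesis at 177 to 543 FPKM. NME2, NME1 and DCTPP1 were highest in the lung library, and PAICS was at 542 FPKM there and 543 FPKM in the limb library. DGUOK, a mitochondrial deoxyguanosine kinase, was lowest in the lung library, at 59.8 FPKM, and at 107 to 301 FPKM in the others. NUDT1 was called lower in the heart library than in each of the others (at 0, with 33.8 to 442 FPKM elsewhere). Called lower likewise were GART in the skin (at 0), GMPS in the lung (8.46 FPKM) and UMPS in the limb library (2.28 FPKM). Of all genes, 0.304%, 0.985%, 0.685% and 0.862% were called lower in the heart, skin, lung and limb library. Called higher than in each of the others were CTPS2 in the brain (23.4 FPKM, 1.24% of all genes) and PRPS2 in the skin library (12.8 FPKM, 1.23%).

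Regulators of S phase entry were again most often above 0 in the lung library, with 18 of 29 (62.1%), against 9 to 12 (31.0% to 41.4%) in the other 4. Of all genes, 21.7% were above 0 in the lung library and 18.5% to 24.0% in the other 4. CKS2, a partner of cyclin-dependent kinases, was at 1318 FPKM in the lung, 321 in the heart, 82.0 in the skin, 39.2 in the brain and 0 in the limb library. CCNE2, a cyclin of the start of S phase, was at 99.3 FPKM in the lung and 2.01 FPKM in the skin library. CCNA2, a cyclin of S phase and G2, was at 70.7 FPKM in the skin library alone, and CCNE1 at 23.8 FPKM in the brain library alone. CDK4 (86.5 to 223 FPKM), CCND1 (58.6 to 193), CCND2 (26.6 to 150) and CKS1B (41.9 to 281) were above 0 in all 5 libraries. SKP2 at 33.1 FPKM, E2F5 at 31.0 and E2F7 at 11.5 were above 0 in the lung library alone, and E2F1 was at 0 in all 5. In each pair 8 of the 29 were called higher in the lung library (4.43% to 6.13% of all genes). Called lower there were 1 or 2 (4.23% to 5.35%). CKS2, CCNE2, SKP2, E2F5 and E2F7 were called higher in the lung library than in each of the others (1.6% of all genes). Called likewise were CCNA2 in the skin (1.23%), CCNE1 and TFDP2 (53.5 FPKM) in the brain (1.24%) and CDK6 (12.4 FPKM) in the heart library (1.33%). CKS2 was called lower in the limb library than in each of the others (0.862%). Of 6 CDK inhibitors, CDKN1A was at 123 FPKM in the lung and 0.59 to 23.8 FPKM in the other 4, CDKN2D at 73.8 FPKM in the skin library alone, and CDKN2C at 20.5 FPKM in the skin and 20.6 FPKM in the lung library. CDKN2B, at 1.68 FPKM in the heart, and CDKN1B, at 0.54 FPKM in the limb library, were low. CDKN1A in the lung library (1.6% of all genes) and CDKN2D in the skin library (1.23%) were called higher than in each of the others.

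Mitotic genes were likewise listed most often in the lung and skin libraries. Of 22 in the list, 18 were above 0 in the lung, 17 in the skin, 5 in the brain, 4 in the heart and 0 in the limb library. These are 81.8%, 77.3%, 22.7%, 18.2% and 0%, against 21.7%, 18.5%, 23.9%, 24.0% and 19.3% of all genes. They summed to 2324 FPKM in the lung, 2058 in the skin, 69.7 in the brain and 46.5 in the heart library. PTTG1 (securin), for example, was at 1089 FPKM in the lung and 455 FPKM in the skin library and at 0 in the other 3. UBE2C, which drives the exit from mitosis, was at 372 FPKM in the skin and 290 FPKM in the lung library, 1.13 FPKM in the brain and 0 in the heart and limb libraries. The mitotic cyclins CCNB1 and CCNB2 stood at 123 and 227 FPKM in the skin and at 284 and 84.3 FPKM in the lung library, and CCNB2 was also at 19.9 FPKM in the brain library. BIRC5 (survivin) was at 227 FPKM in the skin and 102 FPKM in the lung library alone. Not all of the list did the same. AURKB was at 39.1 FPKM in the brain, 27.4 in the heart and 21.4 in the lung library and at 0 in the skin and limb libraries. AURKA was above 0 in the heart library alone, at 3.57 FPKM, and CDK1 and TTK were at 0 throughout. MKI67 was low, at 3.44 FPKM in the lung and 0.54 FPKM in the skin library. Of the mitotic genes, BUB1 was called higher in the lung library than in each of the others (1.6% of all genes). BUB1B was called so in the skin library (1.23%). Between these 2 libraries 2 of the 22 mitotic genes were called higher in the lung one (6.0% of all genes). Called higher in the skin one was 1 (4.23% of all genes). The 43 replication genes had 14 and 3. The difference between the 2 lists was not tested. The limb library held no mitotic gene of the list above 0 and still listed PCNA, TYMS, POLD3, GINS1, MCM4, 4 RFC subunits and all 3 RPA subunits.

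**Figure D4:**
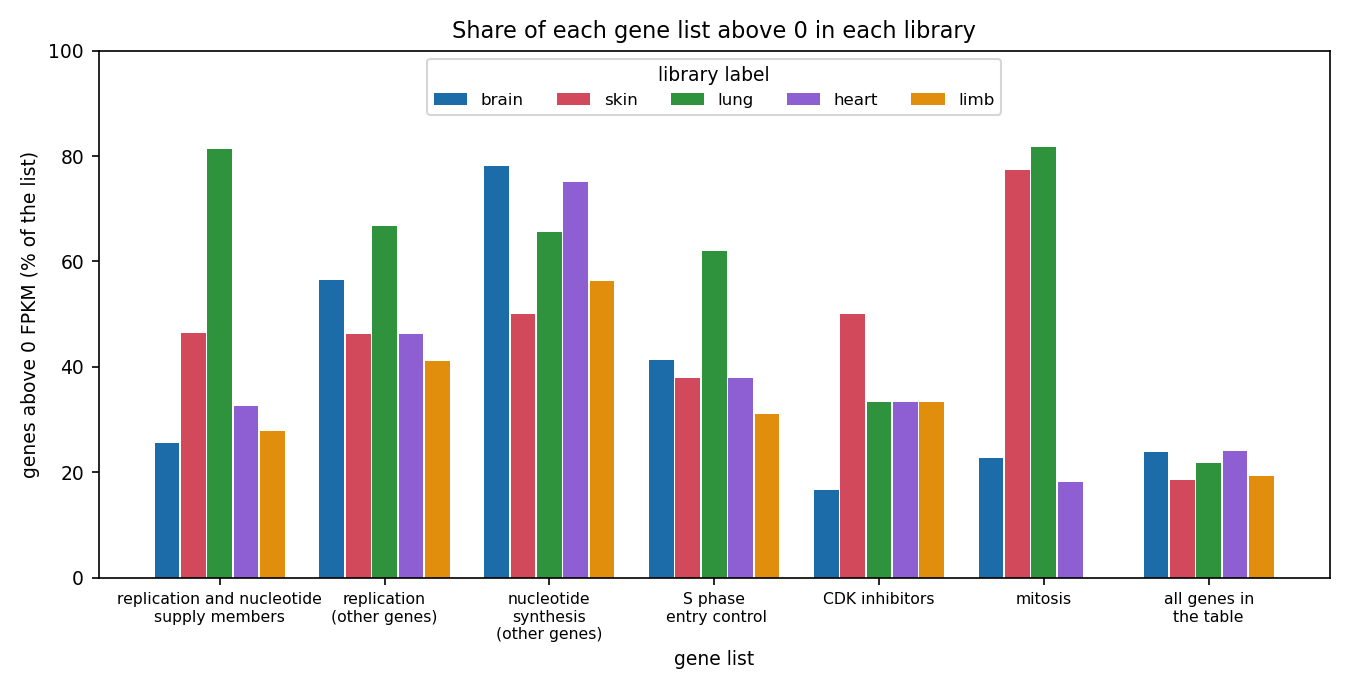
Percent of each gene list above 0 FPKM in each of the 5 libraries (bars, coloured by label), with all genes of the table at the right. The lung bar leads for the 43 replication and nucleotide supply genes (81.4%) and the brain bar leads for the other nucleotide synthesis genes (78.1%).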

How the data were processed

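RNA sequencing values of 5 cattle libraries, 1 per tissue label, were analysed. Per the submitters' processing notes, bcl2fastq, STAR and RSEM were used with the ARS-UCD1.2 build. Versions and the annotation were not stated. The authors deposited 1 table with 2 decimals and no unit, and its values were taken as FPKM because they are not whole numbers and each library summed to more than the total that TPM allows. The deposited FPKM values were used as they stand. With 1 library per label no test was run and no error is given. The 43 genes were matched by the name in the table. The genes and lists were chosen with earlier results of these data known. The text names every one of the 43, and of each pathway list the 5 genes with the highest mean and those called in all 4 pairs of a library. Other genes named were chosen after their values were seen. Relative depth was read from ratios of whole numbers up to 4, within 0.3%, of values between 2 and 200 FPKM. RSEM shares reads between similar genes, so a value as low as 0.45 FPKM may stand for less than 1 read. Alternatives changed the minimum, the amount added, the ratio and the scaling. Sequences were not analysed here. Python 3.11.15, pandas 2.3.3, numpy 2.4.6 and scipy 1.17.1 were used.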

Additional observations from a re-analysis of the deposited data

How the results depend on the processing

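The numbers of genes above 0 in each library and in all, 4, 1 or 0 libraries stayed within 1.5 times under a minimum of 1 or 5 FPKM and with entries of a name summed. No paired analysis was possible because each label has 1 library. The cause of the shifts below was not tested beyond the setting itself, and small counts shift easily. Counts of genes called higher moved as follows. With a minimum of 50 FPKM, lung over brain gave 14, lung over heart 15, lung over limb 12, lung over skin 6, limb over brain 3, brain over heart 1 and limb over heart 1, and brain over lung, heart over brain, heart over skin, heart over lung, limb over skin and limb over lung gave 0. With 10 added, lung over skin gave 9, limb over brain 2, limb over heart 2, brain over heart 1 and heart over brain 1, and brain over lung, heart over skin, heart over lung and limb over lung gave 0. With no minimum, brain over skin gave 1, heart over skin 4, heart over lung 2, heart over limb 5 and limb over skin 2. With a ratio of 2, brain over heart gave 5, skin over lung 5, heart over limb 2 and limb over heart 8. With 0.1 added, heart over limb gave 2, and rescaled by the median ratio, brain over lung gave 1. The median level became 3.32 in the brain, skin, heart and limb and 5.24 in the lung library as log2(value + 10). It was 4.70 in the lung library after rescaling, and 5.65 there and 3.14 in the skin library over genes with a mean of at least 1. Over named genes alone, 0% of those at 200 FPKM or more were at 0 in the heart library, against 0.195% of all genes. Depth is known only as a ratio, so the reads behind a value are unknown and low values cannot be given an interval.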
